A study of Mus musculus with 2 samples.

Results

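The tumour necrosis factor (TNF) superfamily was examined in nuclear RNA of mouse bone marrow-derived macrophages. Its genes were taken by symbol, as those beginning with Tnfsf or Tnfrsf and a number plus Cd40, Cd27, Fas, Fasl and Ltbr. Tnfrsf1a and Tnfrsf1b were left out, and family genes with other symbols, such as Tnf, Ltb, Cd40lg and Cd70, are not matched. This gave 35 of the 55536 genes in the annotation, of which 12 encode ligands, 22 encode receptors and 1, Tnfsf13os, is an antisense RNA whose symbol matches the rule.

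Bone marrow-derived macrophages are primary phagocytes grown in culture from marrow, here of C57BL/6J mice, and no age or sex is recorded for them. There was 1 group: all cells had been given Lipid A, the lipid anchor of bacterial lipopolysaccharide and the ligand of TLR4, at 100 ng/ml for 12 h, then kept 12 h without it, and given 100 ng/ml again for 20 min. RNA of the nuclear fraction, called nucleoplasmic in the sample description, was depleted of ribosomal RNA and sequenced in 2 libraries, replicate 1 from 1 µg of RNA and replicate 2 from 500 ng. They carry the same donor label and separate animals are not stated, so the spread between them may be partly technical, and no untreated sample was among those analysed here. Depth over all genes came to 21954179 expected counts for replicate 1 and 17739520 for replicate 2. A count of 0 therefore still allows up to 0.137 and 0.169 CPM (3 counts of the total), a limit that covers counting error only.

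Ligands of this superfamily are mostly trimeric proteins of the cell surface that can be shed, and their receptors carry cysteine-rich repeats outside the cell. Receptors signal through TRAF adaptors to NF-kappa B and MAP kinases, or through an intracellular death domain to caspases, while decoy receptors bind ligand without signalling. Macrophages are known both as a source of ligands for T and B cells and as cells that respond through receptors such as CD40 and RANK.

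The pairs of ligand and receptor whose levels stood farthest apart were Tnfsf14 with Tnfrsf14 and Tnfsf11 with Tnfrsf11a. Their promoter windows are shown because in each pair the ligand gene had next to no counts and the receptor gene was the highest or second highest member. Each window runs from 250 bases before to 50 bases after the gene's RefSeq start, 5′ to 3′ on the gene's strand, on GRCm38.p6. For Tnfrsf14 this start lies inside the span of the gene used for its level (chr4:154921933-154928563). Its whole window is therefore within that span. Capitals mark matches to the motifs searched. The windows lie at chr17:57194132-57194431 (minus strand) for Tnfsf14, chr4:154928028-154928327 (minus) for Tnfrsf14, chr14:78307994-78308293 (minus) for Tnfsf11 and chr1:105780473-105780772 (plus) for Tnfrsf11a.
Tnfsf14: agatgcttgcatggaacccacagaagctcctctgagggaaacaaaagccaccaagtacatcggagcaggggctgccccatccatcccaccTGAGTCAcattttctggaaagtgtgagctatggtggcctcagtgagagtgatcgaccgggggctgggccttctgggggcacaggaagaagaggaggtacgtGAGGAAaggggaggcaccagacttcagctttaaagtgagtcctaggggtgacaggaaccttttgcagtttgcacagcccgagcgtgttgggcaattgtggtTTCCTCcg
Tnfrsf14: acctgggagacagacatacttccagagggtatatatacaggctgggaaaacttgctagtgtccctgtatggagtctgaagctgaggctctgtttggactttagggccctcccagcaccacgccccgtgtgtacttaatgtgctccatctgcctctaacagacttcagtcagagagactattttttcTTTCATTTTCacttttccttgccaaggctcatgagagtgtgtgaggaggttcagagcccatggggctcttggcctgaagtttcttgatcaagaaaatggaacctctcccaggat
Tnfsf11: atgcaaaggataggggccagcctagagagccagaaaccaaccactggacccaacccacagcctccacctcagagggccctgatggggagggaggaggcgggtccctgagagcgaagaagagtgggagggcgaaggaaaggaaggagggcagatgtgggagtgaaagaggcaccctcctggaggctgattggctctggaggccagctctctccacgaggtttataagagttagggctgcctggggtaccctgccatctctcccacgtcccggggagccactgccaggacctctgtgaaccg
Tnfrsf11a: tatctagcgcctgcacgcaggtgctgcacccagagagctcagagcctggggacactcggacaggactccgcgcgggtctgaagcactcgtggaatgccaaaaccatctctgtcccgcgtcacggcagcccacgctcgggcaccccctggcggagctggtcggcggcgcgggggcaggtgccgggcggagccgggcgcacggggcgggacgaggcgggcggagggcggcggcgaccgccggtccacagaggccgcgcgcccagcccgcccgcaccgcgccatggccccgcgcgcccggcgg

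The Tnfsf11 window held 7 CG dinucleotides at a GC content of 61.7%, and the Tnfrsf11a window was richer, with 43 at 76.7%. The windows of Tnfsf14 and Tnfrsf14 held 7 and 2, and the median over all 32851 RefSeq windows was 7. Of the 35 members, 26 were matched to 30 windows, and Cd40, Tnfrsf10b, Tnfrsf11b, Tnfrsf22, Tnfrsf26, Tnfsf12, Tnfsf13os, Tnfsf4 and Tnfsf9 were not. The AP-1 core, TGANTCA searched on both strands, was found in 7 member windows (23.3%), those of Fas, Tnfrsf8, Tnfrsf9, Tnfsf13, Tnfsf14 and, with 2 windows, Tnfsf13b, against 7.81% of all windows. The Tnfsf13b windows overlap and their matches are the same site, so these are 6 sites in 6 genes. The interferon response pair, GAAA followed by any 2 bases and GAAA again, was found in 3 windows (10%), of Tnfrsf14, Tnfrsf17 and Tnfsf13b, against 3.44% of all windows. The kappa B consensus was also in 3 (10%), those of Tnfrsf8, Tnfrsf9 and Tnfrsf25, against 8.46%, and the ETS core GAGGAA in 9 (30%), against 28.3%. No matches to different motifs overlapped, and 15 member windows held none of these letters. A match is a description of sequence only.

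Of the members, 20 of 35 had a mean of at least 1 TPM, the abundance of transcripts after division by their length, which allows genes to be compared. These were 7 of 12 ligand genes, 12 of 22 receptor genes and the antisense RNA. Over all 22028 protein-coding genes the share at that level was 45.6%, so ligands (58.3%) and receptors (54.5%) were detected at shares not far above it. At 10 TPM or more stood 3 ligand and 5 receptor genes, against 21% of protein-coding genes. The median level was 1.44 TPM over ligands and 1.39 TPM over receptors, a difference of 0.02 between the medians of log2(TPM + 1), and that of all protein-coding genes was 0.43 TPM. This difference turned to -0.81 in the deposited read-based transcript table, where the medians were 0.563 TPM for ligands and 1.75 TPM for receptors, so no order of the roles held across tables. Among the members, receptors reached farther up: they spanned 0 to 78.65 TPM and ligands 0 to 14.18 TPM. Ligands together took 0.0156% of counts (95% Wilson interval 0.0151 to 0.0162%) in replicate 1 and 0.0113% (0.0108 to 0.0118%) in replicate 2, and receptors took 0.0388% (0.0380 to 0.0396%) and 0.0336% (0.0327 to 0.0345%). These intervals cover counting error only, and for each role those of the 2 libraries did not overlap.

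**Figure D1:**
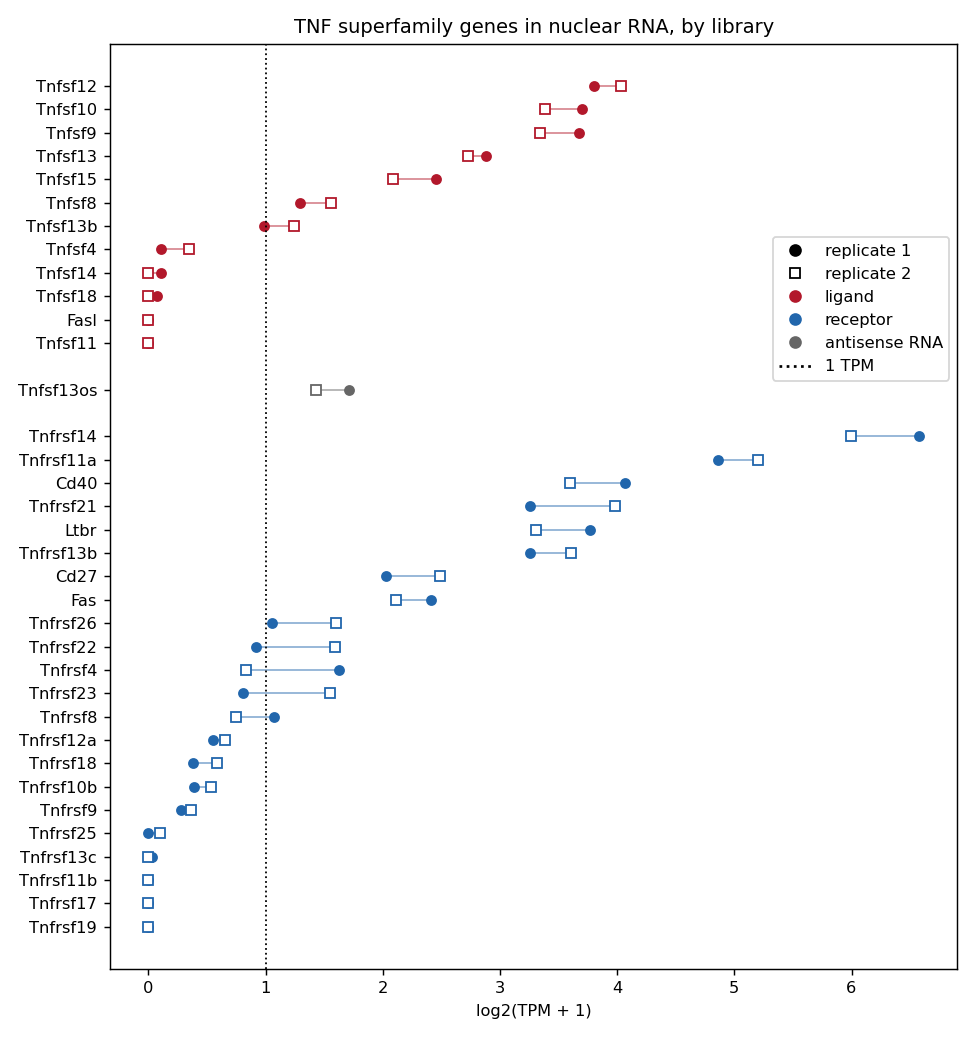
Level of each member in replicate 1 (filled circles) and replicate 2 (open squares) as log2(TPM + 1), ligands above and receptors below, sorted by mean TPM. Tnfrsf14 and Tnfrsf11a stand above the other members, and the dotted line marks 1 TPM.

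Among ligands, the highest was Tnfsf12, which encodes TWEAK, a cytokine of tissue repair, on chromosome 11 (69686250 to 69695849 in GRCm38). Its level was 12.97 TPM in replicate 1 and 15.38 in replicate 2. Tnfsf10, which encodes the death ligand TRAIL, had 12.02 and 9.44 TPM. Tnfsf9, whose product costimulates T cells, had 11.75 and 9.11 TPM. In each library Tnfsf12 was above Tnfsf10 and Tnfsf10 above Tnfsf9, although the ranges of Tnfsf10 and Tnfsf9 over the libraries overlapped.

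The B cell survival factors were lower. Tnfsf13, which encodes APRIL, was at 6.37 TPM in replicate 1 and at 5.64 in replicate 2. Tnfsf13b, which encodes BAFF, had 0.98 and 1.37 TPM from 45 and 28 counts, and its mean of 1.18 TPM made it the member just above the 1 TPM level. The gene of APRIL was above that of BAFF in each library. Of the remaining T cell costimulatory ligands, Tnfsf15 had 4.48 and 3.26 TPM. Tnfsf8, which encodes the CD30 ligand, had 1.45 and 1.95 TPM.

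The other 5 ligand genes had next to no RNA in these nuclei. Fasl, which encodes the ligand of the death receptor Fas, and Tnfsf11, which encodes the osteoclast factor RANKL, had 0 counts in both libraries. Tnfsf4, which encodes the OX40 ligand, had a mean of 0.18 TPM from 4 and 9 counts. The last 2, Tnfsf14 and Tnfsf18, were named after their values were seen, with 4 and 3 counts in replicate 1 and 0 counts in replicate 2. These counts are too few to order the 5 genes.

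Among receptors, Tnfrsf14 on chromosome 4 (154921933 to 154928563), which encodes the herpesvirus entry mediator that binds LIGHT, was the highest member, at 94.35 TPM in replicate 1 and 62.95 TPM in replicate 2 (mean 78.65 ± 22.2 SD, n = 2). It ranked 468th of 22028 protein-coding genes. Tnfrsf11a on chromosome 1 (105780718 to 105847981), which encodes RANK, the receptor that drives osteoclast formation from cells of the macrophage lineage, had 28.04 and 35.86 TPM (mean 31.95 ± 5.53 SD, n = 2) and ranked 1558th. Their order depends on division by length: by counts Tnfrsf11a was higher, with 3266 and 2549 counts, against 1958 and 840 counts for Tnfrsf14. These genes stood above every ligand gene among the members in TPM in each library. Tnf, a ligand gene outside the rule, was higher than either, at 325.92 TPM in replicate 1 and 153.74 in replicate 2.

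Cd40, the receptor through which T cells activate macrophages, was at 15.81 TPM in replicate 1 and at 11.08 in replicate 2. Ltbr, the lymphotoxin beta receptor, which signals through the alternative NF-kappa B pathway, had 12.63 and 8.92 TPM. Tnfrsf21, a death domain receptor, had 8.58 and 14.78 TPM. Tnfrsf21 was the lowest of these in replicate 1 and the highest in replicate 2, while Cd40 was above Ltbr in both. Tnfrsf13b, which encodes TACI, a receptor for APRIL and BAFF, had 8.57 and 11.21 TPM, while the other receptors of these factors were near or at 0: Tnfrsf17, which encodes BCMA, had 0 counts in both libraries and Tnfrsf13c, which encodes the BAFF receptor, had 1 and 0 counts.

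Lower receptors included Fas, the death receptor, at 4.33 TPM in replicate 1 and 3.32 in replicate 2. Cd27, a costimulatory receptor of T cells, had 3.09 and 4.61 TPM. Tnfrsf4, which encodes OX40, had 2.09 and 0.78 TPM from 38 and 13 counts. Fas and Cd27 changed order between the libraries. Tnfrsf22 and Tnfrsf23, which encode decoy receptors for TRAIL in the mouse, had 0.89 and 0.75 TPM in replicate 1 and 2.02 and 1.92 TPM in replicate 2. Tnfrsf26, their neighbour on chromosome 7, had 1.08 and 2.04 TPM, and the 3 genes lie in 1 cluster from 143607659 to 143685872, so reads of close copies could be shared among them.

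Just below the level came Tnfrsf8, which encodes CD30, with 1.10 TPM in replicate 1, 0.68 TPM in replicate 2 and a mean of 0.89 TPM. Tnfrsf12a, which encodes the TWEAK receptor, had a mean of 0.52 TPM, and Tnfrsf18, which encodes GITR, 0.40 TPM. Tnfrsf11b, a secreted decoy for RANKL, and Tnfrsf19 had 0 counts in both libraries, as did Tnfrsf17. In all, 5 members had 0 counts in both libraries, against 34.5% of protein-coding genes. The remaining 4 receptor genes under the level, Tnfrsf13c among them, had means of 0.01 to 0.38 TPM. In bulk RNA, fewer cells with a transcript and less of it per cell cannot be told apart.

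When ligands were set beside the signalling receptors known to bind them, with decoy receptors left out, 2 of 16 pairs had both genes at 1 TPM or more. Both of these involve TACI, with Tnfsf13 at 6.01 TPM and Tnfsf13b at 1.18 TPM against Tnfrsf13b at 9.89 TPM. The pair with Tnfsf13b was the weaker case, as Tnfsf13b was under 1 TPM in replicate 1 (0.98 TPM). In the read-based table Tnfsf13b had 0.523 TPM, and of this pair the receptor gene alone was at the level. In 8 pairs the ligand gene alone was at that level, among them Tnfsf12 with Tnfrsf12a (14.18 against 0.52 TPM), Tnfsf10 with Tnfrsf10b (10.73 against 0.38 TPM) and Tnfsf9 with Tnfrsf9 (10.43 against 0.25 TPM). In 5 pairs the receptor gene alone was, namely Tnfsf14 with Tnfrsf14 (0.04 against 78.65 TPM) and with Ltbr (0.04 against 10.78 TPM), Tnfsf11 with Tnfrsf11a (0 against 31.95 TPM), Fasl with Fas (0 against 3.83 TPM) and Tnfsf4 with Tnfrsf4 (0.18 against 1.44 TPM). Tnfsf18 and Tnfrsf18, the GITR ligand and GITR, were both under it. Of the decoys, those for TRAIL were at the level together with Tnfsf10 (10.73 TPM), with Tnfrsf22 at 1.46 TPM and Tnfrsf23 at 1.34 TPM, while Tnfsf11 and its decoy Tnfrsf11b both had 0 counts. All 5 of the receptor-only pairs, 4 of the 8 ligand-only pairs and 11 of the 16 pairs in all fell in the same class in the read-based table. There TRAIL and its receptor were both at the level, with Tnfsf10 at 4.44 TPM and Tnfrsf10b at 2.35 TPM. The classes also depend on the scale. With TPM rescaled to protein-coding genes, 16 receptor genes in place of 12 were at 1 TPM or more. The next by level are Tnfrsf8, Tnfrsf12a, Tnfrsf18 and Tnfrsf10b, so the classes of their pairs did not hold on the rescaled TPM.

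**Figure D2:**
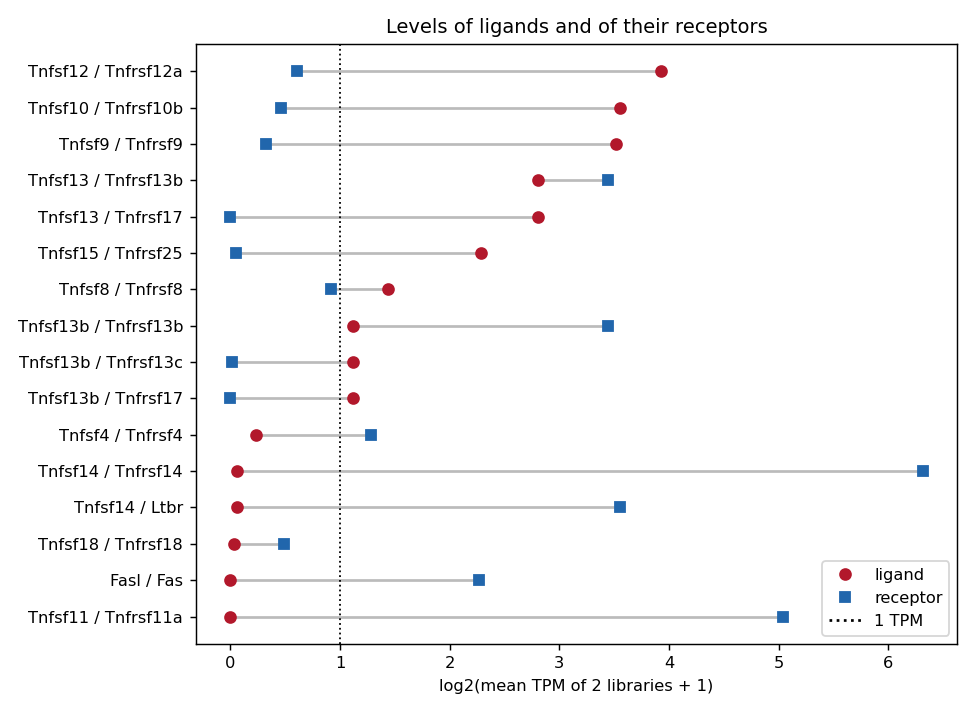
Mean level of the ligand gene (circles) and of the signalling receptor gene (squares) in 16 pairs, decoys not drawn, as log2(mean TPM of the 2 libraries + 1), sorted by the ligand's level. Of these, only the pairs of Tnfrsf13b with Tnfsf13 and Tnfsf13b have both symbols right of the dotted line at 1 TPM.

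Between the libraries, 1 of the 20 members at 1 TPM or more differed by over 2-fold, against 7.29% of the 12952 genes at that level (4.51% higher and 2.78% lower in replicate 1). This was Tnfrsf4, at 2.09 TPM in replicate 1 and 0.78 TPM in replicate 2, with a log2 difference of 1.08 on the TPM + 1 scale relative to the median gene. The median gene differed by -0.29, and Tnfrsf4 stayed under 2-fold without that centring (0.80), with TMM-scaled counts (0.73), in the read-based table (0.67) and with a pseudocount of 5 (0.47). With a pseudocount of 0.1 it was at 1.66. With TMM-scaled counts, Tnfrsf14 (1.03) and Cd40 (1.03) were over 2-fold higher in replicate 1 instead. With 1 library on each side there is no test, and the RNA input of the libraries cannot be told apart from the replicate.

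All 7 ligand genes at the level were higher in replicate 1 relative to the median gene, with a median of 0.44 on the log2 scale and a range of 0.02 to 0.65, but 4 of 7 were without centring and 6 of 7 with TMM-scaled counts. In the read-based table all 7 of them were, but only relative to the median gene there. Before centring, each of the 7 had the lower TPM in replicate 1 of that table, such as Tnfsf12 with 3.88 against 10.33 TPM. The 12 receptor genes at the level also had the lower TPM in replicate 1 there. Of the 12 receptor genes, 5 were higher and 7 lower in replicate 1, with a median of -0.06 and a range of -0.45 to 1.08. This balance changed with the scaling, to 6 higher and 6 lower with TMM-scaled counts and to 9 higher and 3 lower (median 0.19) in the read-based table, and no difference between the roles was tested. Among protein-coding genes at the level 53.2% were higher and 46.8% lower, with a median of 0.04. Tnfrsf14 (0.87), Cd40 (0.77), Ltbr (0.75) and Fas (0.59) were the receptors highest in replicate 1 after Tnfrsf4, and Tnfrsf23 (-0.45), Tnfrsf21 (-0.43) and Tnfrsf22 (-0.39) the lowest. Every member lay within the central 95% of all genes at the level, which ran from -1.04 to 1.30.

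**Figure D3:**
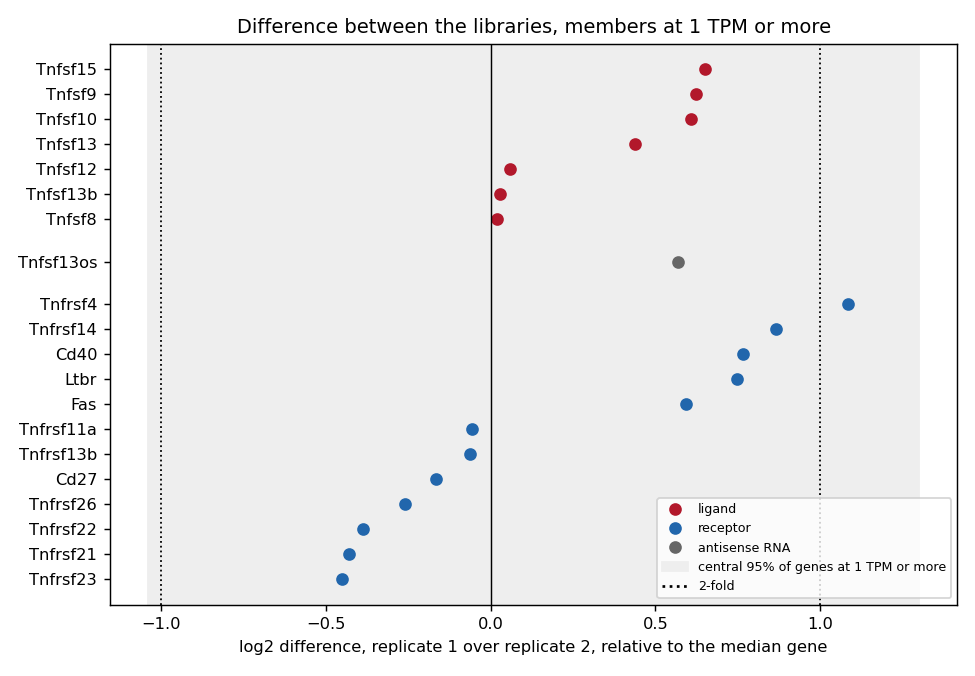
log2 difference of TPM + 1, replicate 1 over replicate 2, relative to the median gene, for the 20 members at 1 TPM or more. All 7 ligands lie right of 0, the 12 receptors lie on both sides, and the grey band from -1.04 to 1.30 holds the central 95% of genes.

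Nuclear RNA holds unspliced as well as spliced transcripts, so the share of each gene's TPM in transcripts annotated as protein-coding was taken from the deposited isoform percentages. For ligand genes the median share was 100%, for receptor genes 85.0%, and for 10024 protein-coding genes at 1 TPM or more 76.1%. The share was 95% or more in 6 of 7 ligand genes and 4 of 12 receptor genes, against 27.5% of protein-coding genes, and under 50% in 1 ligand and 2 receptor genes, against 21%. The annotation limits this: ligand genes had a median of 2 annotated transcripts, 3 of them having 1, against 4 for receptor genes and 5 for protein-coding genes. All transcripts annotated for the 6 ligand genes at 95% or more, and for Tnfrsf14, Tnfrsf22 and Tnfrsf26, are coding. Their share was fixed at 100% whatever the reads, and with it the median of the ligand genes. The median over all 19 members was 95.6%, and 77.6% in the read-based table.

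The members with the lowest shares were Tnfsf13b and Cd27. Coding transcripts made up 24.4% of the TPM of Tnfsf13b in replicate 1 and 6.00% in replicate 2. For Cd27 they made up 24.9% and 15.8%. In Cd27 the retained-intron transcript Cd27-205 alone held 46.5% and 38.8% of the gene's TPM, from 12 and 10 counts, and Cd27-206, of the same type, held 22.0% and 30.2%. By counts the coding share of Cd27 was larger, at 55.4% and 40%, as Cd27-205 and Cd27-206 are annotated with 491 and 744 bases and the coding transcript Cd27-201 with 1559. In the read-based table Cd27-201 was the highest transcript of Cd27, at 0.787 TPM in replicate 1 and 3.51 in replicate 2. Cd27-205 had 0.398 and 1.11 TPM there. In Tnfsf13b the retained-intron transcript Tnfsf13b-204 held 23.7% and 24.1%, and Tnfsf13b-206, named after its values were seen, held 12.0% in replicate 1 and 69.9% in replicate 2 from 2.27 and 12.64 counts.

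The introns that Cd27-205 and Tnfsf13b-206 keep are shown because they set these transcripts apart from the spliced ones. They lie at chr6:125234317-125234514 (minus strand, 198 bases, spliced out in Cd27-201) and chr8:10031423-10031505 (plus strand, 83 bases, spliced out in Tnfsf13b-201 and Tnfsf13b-203) in GRCm38. Both were read from the GENCODE M21 transcript sequences, 5′ to 3′ on the gene's strand, with the intron in capitals and 12 bases of the exons on each side in lower case.
Cd27-205: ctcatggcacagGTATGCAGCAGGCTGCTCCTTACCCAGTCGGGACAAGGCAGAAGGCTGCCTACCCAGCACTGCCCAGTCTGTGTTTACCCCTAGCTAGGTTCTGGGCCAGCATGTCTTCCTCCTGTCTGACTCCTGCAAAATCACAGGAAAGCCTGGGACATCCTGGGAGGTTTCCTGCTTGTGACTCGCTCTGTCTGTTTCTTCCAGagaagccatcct
Tnfsf13b-206: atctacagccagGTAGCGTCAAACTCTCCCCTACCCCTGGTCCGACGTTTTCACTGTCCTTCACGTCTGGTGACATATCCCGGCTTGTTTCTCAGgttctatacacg

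Each intron begins with GT and ends with AG, the usual splice site dinucleotides. Retained-intron transcripts also took 22.3% of the TPM of Tnfrsf11a in replicate 1 and 32.6% in replicate 2. In Cd40 they took 14.7% and 20.2%, and in Tnfrsf21 15.2% and 19.1%. In these genes the share was higher in replicate 2. In Ltbr it was 8.80% in replicate 1, from 1 count of Ltbr-203, and 0 in replicate 2. Tnfrsf23 had coding shares of 38.7% and 51.8%.

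Several genes had more than 1 major coding transcript. Tnfrsf14 was divided between Tnfrsf14-205 (37.7% of its TPM in replicate 1 and 29.6% in replicate 2), Tnfrsf14-201 (32.8% and 37.2%) and Tnfrsf14-203 (25.01% and 28.8%). The last is annotated with 394 bases and drew 129.29 and 65.49 counts, so part of the high TPM of Tnfrsf14 came from a short transcript with few counts. Tnfsf13 was divided between Tnfsf13-201 (67.4% and 54.4%) and Tnfsf13-202 (32.6% and 45.6%). The highest transcript was Tnfrsf14-205 in replicate 1 and Tnfrsf14-201 in replicate 2, whereas Tnfsf13-201 was the higher of its gene in both.

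**Figure D4:**
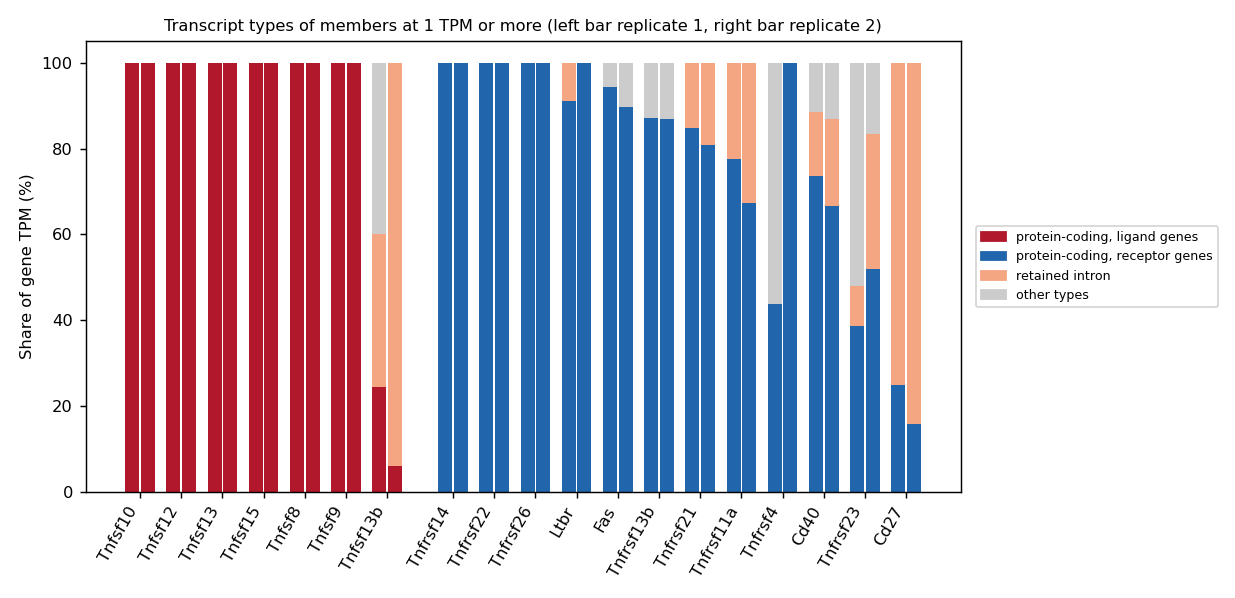
Share of each gene's TPM in protein-coding transcripts, retained-intron transcripts and other types, for the 19 protein-coding members at 1 TPM or more, with replicate 1 as the left bar and replicate 2 as the right bar of each gene. The bars of 6 of 7 ligands are filled by coding transcripts, the only type annotated for them. The coding part is smallest in Tnfsf13b and Cd27.

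Neighbouring genes limit some of these values, since no strand setting of the counting is stated. Tnfsf13 and Tnfsf12 lie 465 bases apart on chromosome 11 and share 983 and 731 exonic bases with the read-through gene Tnfsfm13, which had 291.81 counts in replicate 1 and 178.42 in replicate 2. Tnfsf13 itself had 233.79 and 142.3 counts, and Tnfsf12 had 474.4 and 371.27. The division of reads among these 3 genes is therefore an estimate. Tnfsf13os, transcribed from the other strand, shares 221 exonic bases with Tnfsf13 and had 2.27 and 1.69 TPM from 24 and 12 counts. Reads in that stretch may come from either gene, and how they were divided was not tested. Tnfsf9 shares 192 exonic bases with Gm11110 on the opposite strand. Gm11110 had 32.12 and 33 counts, against 378.88 and 200 for Tnfsf9. The antisense gene E230032D23Rik, with 26 and 22 counts, shares 164 exonic bases with Tnfrsf23 and 107 with Tnfrsf26.

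The members were also compared between the deposited tables. The read-based table gave more reads than the alignment-based table for most genes, with a median ratio of 1.30 in replicate 1 and 1.78 in replicate 2. Of the 23 members with 10 or more counts in each library, 4 exceeded that median by over 2-fold in both libraries, against 7.46% of 14347 genes, and all 4 were receptors. Tnfrsf10b, the TRAIL death receptor of the mouse, had 326 and 450 counts in the read-based table, against 27 and 27 in the alignment-based table. Tnfrsf22 had 336 and 499 against 88.22 and 130, Tnfrsf26 had 323 and 490 against 93 and 119, and Cd27 had 201 and 327 against 56 and 50. The ligand genes of this comparison stayed between 0.649 and 1.35 times the median ratio.

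Under the count minimum, Tnfrsf13c had 76.1 and 248 counts in the read-based table, against 1 and 0. At 1 TPM the tables therefore differed in 4 members: Tnfrsf10b (2.35 TPM) and Tnfrsf13c (1.51 TPM) were at the level only in the read-based table, and Tnfsf8 (0.602 TPM there) and Tnfsf13b (0.523 TPM there) only in the alignment-based one. In Tnfrsf26 the tables chose different transcripts: Tnfrsf26-202 held 100% of the TPM in replicate 2 of the alignment-based table, and Tnfrsf26-201 drew 490 of the reads there in the read-based table. How reads were assigned was not tested.

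**Figure D5:**
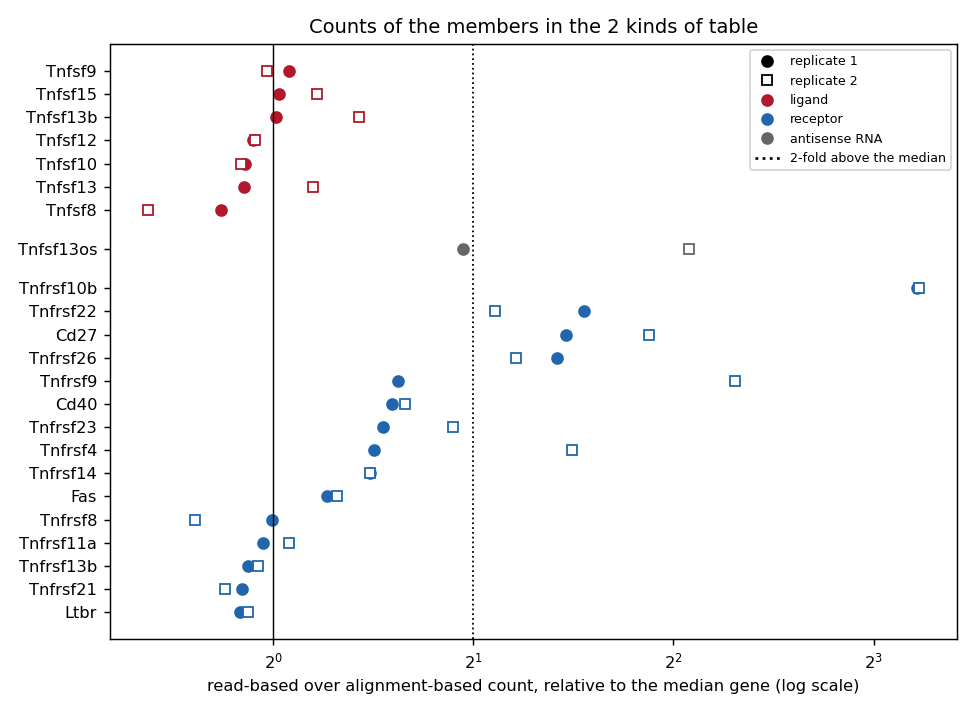
Ratio of the read-based to the alignment-based count of each member with 10 or more counts in each library, relative to the median ratio of all genes (log axis), in replicate 1 (filled circles) and replicate 2 (open squares). Ligands lie close to 1, and Tnfrsf10b, Tnfrsf22, Cd27 and Tnfrsf26 lie right of the dotted 2-fold line in both libraries.

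A chosen list of 18 adaptor and signalling genes downstream of these receptors was also examined. All 18 were at 1 TPM or more, against 45.6% of protein-coding genes, with a median of 14.8 TPM. At 10 TPM or more stood 12 of them, against 21% of protein-coding genes. The highest was Cflar, an inhibitor of caspase activation at death receptors, at 200.58 TPM in replicate 1 and 189.36 in replicate 2. Birc3, a ubiquitin ligase bound to TRAF adaptors, had 68.36 and 55.28 TPM, and Casp8, the caspase recruited to Fas, had 30.08 and 51.92 TPM. Of 10 further family genes outside the rule, 2 were at 1 TPM or more and 4 had 0 counts in both libraries. Tnf, the founding ligand, had 325.92 and 153.74 TPM, Relt, a receptor, had 2.08 and 3.08 TPM, and Ltb, which encodes lymphotoxin beta, had 0.52 and 0.20 TPM.

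Markers of the labelled cell type were present, with 8 of 8 macrophage markers at 1 TPM or more and a median of 124 TPM. Of 8 T and NK cell markers, 1 was at that level, Cd28, at 24.12 TPM in replicate 1 and 65.29 in replicate 2, while Cd3e, Cd3g, Ncr1 and Klrb1c had 0 counts. The other 7 T and NK cell markers summed to 0.25 TPM in replicate 1 and 0.11 TPM in replicate 2, beside Cd27 at 3.09 and 4.61 TPM, and the whole list to 24.37 and 65.4 TPM. None of 6 B and plasma cell markers (summed 0.76 and 1.45 TPM, beside Tnfrsf13b at 8.57 and 11.21 TPM) and none of 6 neutrophil markers reached 1 TPM, and of 6 dendritic, 7 stromal and 4 endothelial markers 1 (Batf3), 1 (Runx2) and 2 (Kdr and Pecam1) did.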

How the data were processed

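Nuclear total RNA was measured by sequencing in 2 libraries of 1 group. Gene and transcript abundances were given by the authors in expected counts, estimates without normalisation, per the file headers. Deposited TPM values divide such estimates by effective length and scale them to a common sum, per the file headers. Deposited isoform percent values give a transcript's share of its gene's TPM, per the file headers. A further deposited transcript table, estimated from reads directly, was given in estimated counts and in TPM, per its file header, and was summed to genes. The build was mm10 with GENCODE M21, per the deposited text files. No aligner, quantifier or strand setting was given in the sources used here. Entries without an Ensembl gene (26345, spike-ins included; 0.581% and 0.434% of counts) were left out.

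Levels were log2(mean TPM + 1), and differences between libraries log2 of replicate 1 over replicate 2 after adding 1, minus the median over genes at a mean of 1 TPM or more. This scale understates folds of low genes. With 1 library a side no test was made. The members and gene lists were chosen with earlier results of these data known. The text names each member at 1 TPM or more, the 3 highest under it, those with 0 counts in both libraries, the 3 highest adaptors and the 3 highest family genes outside the rule, and transcripts at 20% or more of their gene in both libraries that are not coding or share the gene with another such coding transcript. Others were named after their values were seen. The libraries were not a single library deposited again (chi-square over degrees of freedom 91.3, 14347 genes). Alternatives were pseudocounts of 0.1 and 5, levels of 0.5 and 2 TPM, no filter, a minimum of 10 counts, the read-based table, no centring, TMM-scaled counts, CPM, TPM of protein-coding genes, and each library left out. On simulated data, all 200 genes changed by 2 on the log2 scale were recovered for the difference between libraries (100%), and 0.809% of unchanged genes passed 2-fold, over 12815 genes. The simulated counts carried counting error only and the changed genes were well counted, so these rates do not describe the real libraries. There, 7.29% of genes at 1 TPM or more passed 2-fold. Tools were Python 3.11.15, pandas 2.3.3, numpy 2.4.6, scipy 1.17.1, matplotlib 3.10.9 and, for TMM factors of rounded counts, edgeR 4.0.16 in R 4.3.3.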

Additional observations from a re-analysis of the deposited data

How the results depend on the processing

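The number of ligand genes at the level set was 5 to 7 and that of receptor genes 8 to 18 over all settings run. These are within 1.5 times the values of 7 and 12 at 1 TPM. The 8 receptor genes were counted at a level of 2 TPM, and at 1 TPM the lowest number was 11. The difference between the median levels of ligands and receptors (0.02) became -0.81 in the read-based table and -1.27 in that table rescaled to protein-coding genes, a setting chosen after seeing the data. It was 0.44 by CPM and 0.15 to 0.21 with 1 library left out. The count of members over 2-fold apart (1) was 0 with a pseudocount of 5, without the filter, in the read-based table and without centring, and 2 with TMM-scaled counts. The median difference between libraries over members (0.25) was 0.024 without the filter, -0.040 without centring and 0.36 with TMM-scaled counts. The median coding share (95.6%) was 77.6% in the read-based table and 94.3 to 100% with 1 library left out. The cause of these shifts was not tested. No paired analysis was possible because there was 1 group. Members under 10 counts a library, such as Tnfsf14 and Tnfrsf13c, cannot be ordered at this depth.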
